A study of Homo sapiens with 48 samples.

Results

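The genes that encode the proteins of the cytosolic ribosome were taken from the deposited count table by name. A row was kept when its name was RPL or RPS followed by a number, with or without A, L, X or L1, or was one of RPLP0, RPLP1, RPLP2, RPSA and their like, and when it held at least 10000 counts in total over the 48 libraries. Of 19509 genes with counts, 80 names matched and 75 reached the minimum. They comprise 43 genes of the large subunit, 29 of the small subunit and the 3 P-stalk genes RPLP0, RPLP1 and RPLP2. The names under the minimum included RPL10L with 0 counts in total, RPL3L with 29, RPSA with 1125 and RPL39L with 2157. RPSA encodes a core protein of the small subunit. Many ribosomal protein genes have near-identical processed copies in the genome, so that the counts given here are uncertain by whatever reads were lost to or gained from such copies. The 75 genes lie on 20 chromosomes, with at most 11 on any of them.

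The ribosome joins a small subunit, which reads the messenger RNA, to a large subunit, which forms the peptide bond. Each ribosomal protein is needed in a like amount, and the genes are highly expressed in all cell types. Their messenger RNAs usually start with a C followed by a run of pyrimidines, the 5′ terminal oligopyrimidine (TOP) motif, through which mTOR and LARP1 control their translation and stability. A few of the proteins have a second version encoded by a paralogous gene, such as RPL22 and RPL22L1.

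IMR90 ER:RAS cells are human lung fibroblasts of an established line that express oncogenic HRAS joined to the part of the estrogen receptor that binds ligand, so that 4-hydroxytamoxifen (4OHT) activates RAS and triggers oncogene-induced senescence, while DMSO is the vehicle. Cells were kept in DMSO or 4OHT for 6 days, reverse transfected with an siRNA and collected 2 days later in 0.5% serum. The siRNAs were non-targeting (siNT1 and siNT2), against the U2 snRNP subunit SF3B1 (siSF3B1-13 and siSF3B1-16) or against the splicing factor RBM39 (siRBM39-06 and siRBM39-08), each in 4 replicates per treatment. This gave 6 groups of 8 poly-A libraries, all carrying the ER:RAS transgene and all transfected. Both knockdowns in a treatment were compared with the same siNT libraries, and these also served for 4OHT against DMSO. In such bulk RNA, fewer cells of a type and less RNA per cell cannot be told apart.

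Libraries held between 31467221 and 52734636 counts. SF3B1 lay at 30.4 to 35.2 CPM (counts scaled to library size) in DMSO siSF3B1 against 311 to 396 in DMSO siNT, and RBM39 at 24.2 to 31 in DMSO siRBM39 against 158 to 185. After 4OHT the ranges were 25.3 to 30.7 against 315 to 340 for SF3B1 and 13.7 to 18.4 against 115 to 127 for RBM39. The 10 fibroblast markers tested summed to between 18354 and 81215 CPM in a library. The markers of epithelial, leukocyte and endothelial cells (EPCAM, CDH1, PTPRC, CD3E and CDH5) summed to between 0.752 and 4.28 CPM, and 0 of these 5 reached the count minimum.

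The start of the transcripts was read for the genes that the results below turn on, because the TOP motif is a feature that many of the 75 share beyond their name. The RefSeq promoter table (GRCh38.p14) held 62 of the 75. A C at the annotated start followed by at least 4 bases that are C or T, on the strand of the gene, was present in 41 of 62, or 66.1%, against 1429 of 35116 promoters, or 4.07%. In the 30-base windows below, 15 bases lie before the start and 15 from it on, and capitals mark the pyrimidine run where one begins at the start. RPLP0 and RPL22L1 fell and RPS23 and RPL22 rose after every knockdown, RPS24 carries the regulated exon, RPL10 fell most after 4OHT and RPL7L1 fell far more with siRBM39-06 than with siRBM39-08.
RPLP0, chr12:120201097-120201126, minus strand: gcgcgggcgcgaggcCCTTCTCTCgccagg
RPL22L1, chr3:170870181-170870210, minus strand: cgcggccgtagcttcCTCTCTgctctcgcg
RPS23, chr5:82278340-82278369, minus strand: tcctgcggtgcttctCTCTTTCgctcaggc
RPL22, chr1:6199581-6199610, minus strand: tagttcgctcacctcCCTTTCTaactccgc
RPS24, chr10:78033848-78033877, plus strand: cggcgaatcgtggttCTCTTTTCCTCCTTg
RPL10, chrX:154398050-154398079, plus strand: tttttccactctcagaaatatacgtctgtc
RPL7L1, chr6:42879601-42879630, plus strand: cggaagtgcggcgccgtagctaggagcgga
Among these genes, picked for their results, some with the motif rose and some fell. The windows of RPL10 and RPL7L1 hold no run at the annotated start, though RPL10 has one shortly before it. With the run allowed anywhere near the start, 54 of 62 had it, or 87.1%, against 33.5% of promoters. The count thus depends on the exact annotated start, and whether the motif goes with the direction of change was not tested.

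The ribosomal protein genes differed widely in level. Per length, as the deposited cRPKM (RPKM corrected for mappable positions) in DMSO siNT, the highest was RPS2 at 1428 ± 74.8 (SD, n = 8), followed by RPL13A at 1078 ± 60.7 and RPLP0 at 1059 ± 70.8. The lowest were RPS29 at 14.3 ± 1.21 and RPL22L1 at 13.0 ± 0.913. In the order of levels, 67 of the 74 neighbouring pairs overlapped in their libraries, so most adjacent positions were not separated by the spread. The median of the 75 was 382 cRPKM, against 12.5 over all genes tested, 3 genes were over 1000 and 9 under 100.

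Added together, the 75 genes took a smaller share of all counts after 4OHT. In siNT libraries the share was 2.62% at the lowest, 2.73% at the median and 2.90% at the highest in DMSO, and 2.09%, 2.17% and 2.30% in 4OHT. These ranges did not overlap. With siSF3B1 the lowest, median and highest shares were 2.61%, 2.97% and 3.06% in DMSO and 2.33%, 2.35% and 2.43% in 4OHT, the latter all above the 4OHT siNT libraries. With siRBM39 they were 2.55%, 2.73% and 3.60% in DMSO and 2.05%, 2.25% and 3.92% in 4OHT, which overlapped siNT in both treatments.

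**Figure D1:**
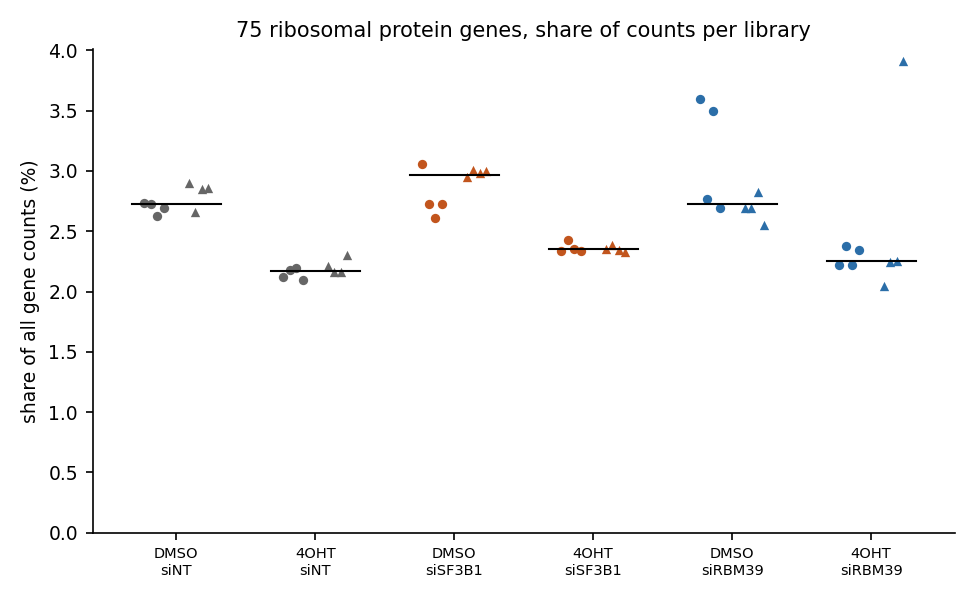
Share of each library's counts held by the 75 ribosomal protein genes, in percent, for the 6 groups. Circles are libraries of the first siRNA of a target, triangles those of the second, and the black bar is the median of 8 libraries. The 4OHT siNT libraries (2.09% to 2.30%) lie below the DMSO siNT libraries (2.62% to 2.90%), and 1 siRBM39 library reaches 3.92%.

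Libraries of siRBM39 stood apart from their groups in this share. Replicate 4 of siRBM39-08 in 4OHT held 3.92%, and 67 of the 75 genes were higher in it than in any other library of its group, by a median ratio of 1.77 to the others and by up to 3.72 for RPLP1. In DMSO, replicates 1 and 3 of siRBM39-06 held 3.60% and 3.49%, with median ratios of 1.29 and 1.28. Replicate 4 of siRBM39-08 in 4OHT had 34283723 counts, within the range of all libraries, and an SF3B1 level of 224 CPM against a group median of 425. Counts of genes called are therefore also given without these libraries. Because all groups share 1 estimate of the spread in the model, leaving them out changed the calls in the other comparisons as well.

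The first comparison asked which ribosomal protein genes change when RAS is activated, in siNT libraries. Of the 75 genes, 47 fell and 4 rose in 4OHT against DMSO by edgeR's quasi-likelihood test at an adjusted p under 0.05, which is 62.7% and 5.33%. Of the other 9916 genes tested, 38.9% fell and 39.2% rose. The median difference of the 75 was -0.29 on the log2 scale, a change of -18.3%, against -0.00 over all genes. The groups did not overlap for 42 genes, or 56.0%, against 69.9% of the other genes. The fall covered both subunits, with 28 genes of 43 lower in the large and 18 of 29 in the small subunit, and 1 of 3 in the P-stalk. With siNT1 alone 46.7% of the 75 were lower, beside 34.8% of all genes tested, and with siNT2 alone 49.3%, beside 34.4%. Called with both were 33 genes lower and 0 higher. The share of all genes called with both is not given. Without replicate 4 of siRBM39-08, 56 genes were lower and 4 higher, with 41.2% of all 9991 genes tested lower.

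The fall was steepest for RPL10, a large subunit protein at the interface with the small subunit. Its level was 433 CPM at the lowest, 546 at the median and 604 at the highest in DMSO siNT, and 264, 295 and 321 in 4OHT siNT. The log2 difference was -0.89 ± 0.10 (SE, adjusted p = 3.0e-11), with no overlap between the groups. RPL36A, of the large subunit, went from 76.6, 87.2 and 107 CPM to 52.1, 56.3 and 59.7, a log2 difference of -0.66 ± 0.09. RPS29, of the small subunit, went from 16.1, 18.3 and 20.4 CPM to 10.9, 11.5 and 12.9, a difference of -0.64 ± 0.11. Neither pair of groups overlapped.

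Among the abundant genes, RPL3, whose protein sits near the peptidyl transferase centre, lay at 1263 to 1426 CPM in DMSO siNT and 832 to 889 in 4OHT siNT, a log2 difference of -0.64 ± 0.09. RPL5 and RPL11, which together with 5S rRNA bind MDM2 when they are free of the ribosome, differed from each other in the outcome of the test. RPL5 had a lowest, median and highest level of 450, 473 and 498 CPM in DMSO and 340, 356 and 375 in 4OHT, and fell by 0.42 on the log2 scale (SE 0.04, adjusted p = 3.4e-14). RPL11 had 277, 297 and 333 CPM in DMSO and 261, 269 and 298 in 4OHT, which overlapped, with a log2 difference of -0.13 (adjusted p = 0.43). Whether the 2 responses differ was not tested. RPS6, a small subunit protein phosphorylated downstream of mTOR, fell from a median of 709 CPM to 526, a log2 difference of -0.41 ± 0.07 (adjusted p = 2.4e-07).

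The 4 genes that rose were RPL22L1, RPS24, RPL35A and RPS13. RPS13, of the small subunit, lay at 151 to 166 CPM in DMSO siNT and 166 to 180 in 4OHT siNT, a log2 difference of 0.12 ± 0.04 (adjusted p = 0.011). RPS24, which acts in the maturation of small subunit rRNA, lay at 250 to 343 and 297 to 345 CPM, ranges that overlapped, with a difference of 0.19 ± 0.07 (adjusted p = 0.02). No gene was called higher with siNT1 alone and 2 were with siNT2 alone.

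**Figure D2:**
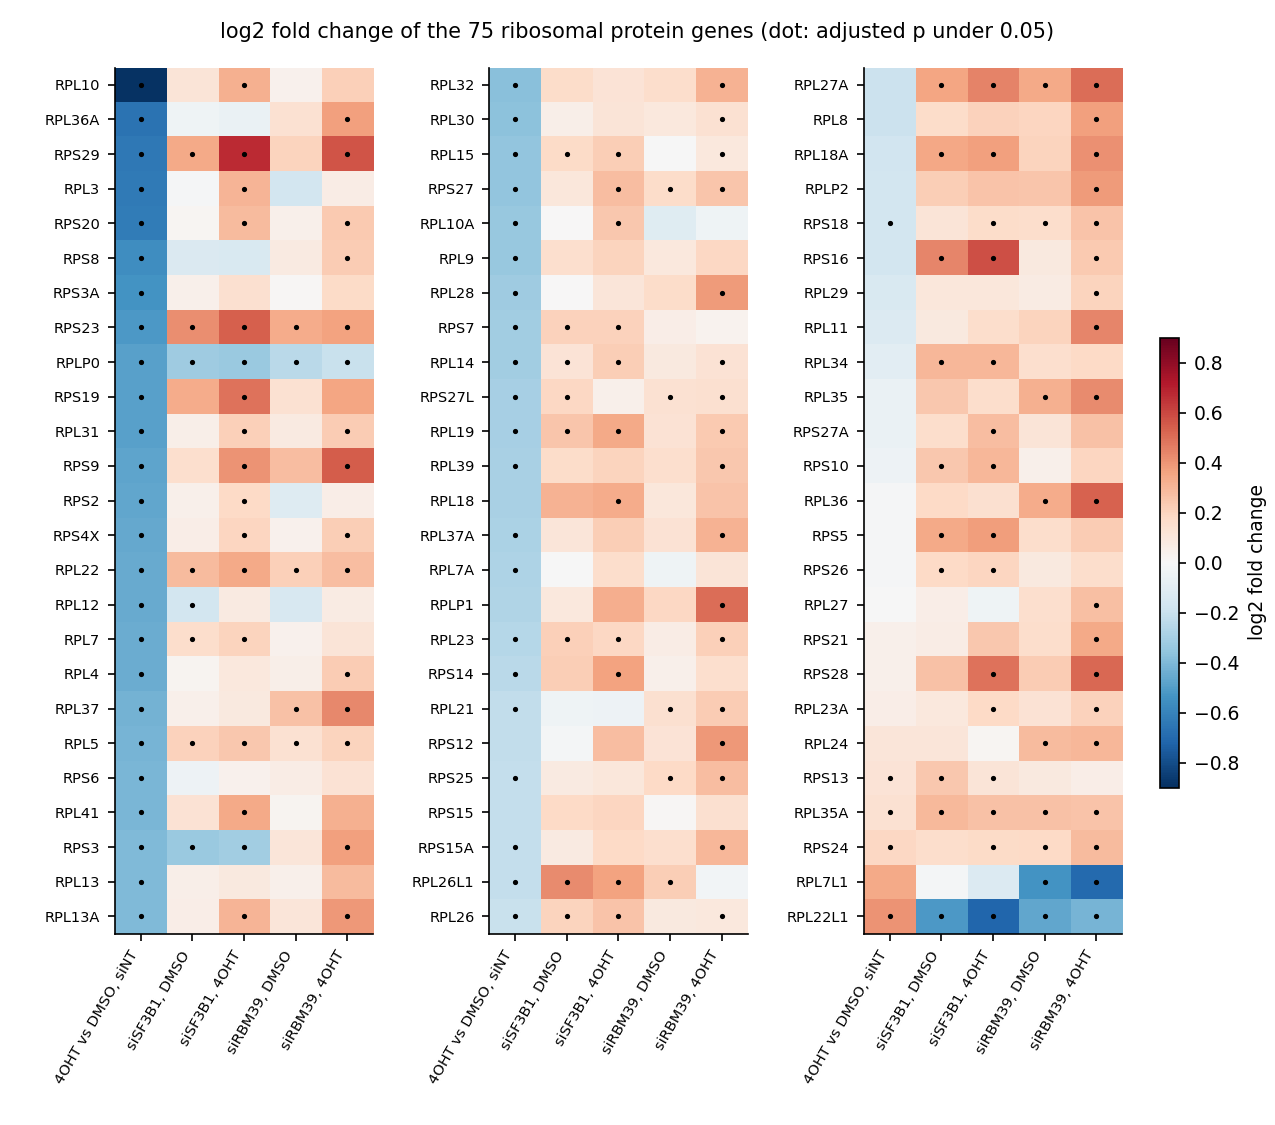
Log2 differences of the 75 genes in the 5 comparisons (columns), in 3 blocks of 25 genes ordered from the largest fall to the largest rise after 4OHT, with dots where the adjusted p is under 0.05. The 4OHT column is mostly negative (47 lower, 4 higher) and the knockdown columns mostly positive, with RPL22L1 and RPLP0 lower in all 4 of them.

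Knockdown of SF3B1 raised more ribosomal protein genes than it lowered. In DMSO, 22 of the 75 rose and 4 fell (29.3% and 5.33%), against 36.6% and 36.5% of the other genes tested. In 4OHT, 40 rose and 3 fell (53.3% and 4.00%), against 39.3% and 37.8%. The median log2 difference was 0.12 in DMSO and 0.20 in 4OHT, against 0.02 and 0.03 over all genes. Groups did not overlap for 19 genes in DMSO (25.3%) and 38 in 4OHT (50.7%), against 54.5% and 67.3% of the other genes. The share of genes that rose in DMSO was thus under that of the other genes, and in 4OHT above it. Without replicate 4 of siRBM39-08 the counts were 37 higher and 5 lower in DMSO, which at 49.3% was above the 39.5% of all genes, and 57 and 4 in 4OHT, 76.0% against 42.2%.

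The rises were seen in both subunits, at 13 of 43 large and 9 of 29 small subunit genes in DMSO and at 21 and 19 in 4OHT, while no P-stalk gene rose. RPS16, of the small subunit, lay at 227, 240 and 261 CPM in DMSO siNT and 304, 324 and 360 in DMSO siSF3B1, and at 199, 215 and 225 against 300, 321 and 347 in 4OHT. The log2 differences were 0.44 ± 0.10 (adjusted p = 7.5e-05) and 0.58 ± 0.10 (adjusted p = 5.0e-07), with no overlap in either treatment. RPS23, which lies in the decoding centre, rose by 0.42 and 0.54 (adjusted p = 5.3e-11 and 1.5e-14). Its level was 307, 326 and 362 CPM in DMSO siNT, 420, 444 and 457 in DMSO siSF3B1, 215, 223 and 257 in 4OHT siNT and 321, 336 and 353 in 4OHT siSF3B1. The siSF3B1 libraries were thus all higher, and the knockdown in 4OHT ran close to the DMSO siNT level.

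RPS29 rose by 0.34 in DMSO and by 0.67 ± 0.11 in 4OHT (adjusted p = 5.9e-07), from 10.9 to 12.9 CPM to 16.0 to 20.5 CPM in the latter. RPL27A, of the large subunit, rose by 0.36 and 0.44, from 316 to 361 CPM to 412 to 495 in DMSO and from 276 to 316 to 383 to 423 in 4OHT. Neither gene's 4OHT groups overlapped. RPL26L1, the paralogue of RPL26, rose from 16.9, 17.6 and 18.7 CPM to 22.2, 24 and 25.9 in DMSO, a log2 difference of 0.42 ± 0.05 (adjusted p = 2.0e-09).

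The genes that fell were RPL22L1, RPLP0 and RPS3 in both treatments, and RPL12 in DMSO. RPLP0, the scaffold of the P-stalk that recruits translation factors, lay at 1071, 1238 and 1324 CPM in DMSO siNT and 891, 981 and 1024 in DMSO siSF3B1, and at 819, 876 and 916 against 670, 692 and 723 in 4OHT. It fell by 0.32 and by 0.33 on the log2 scale (adjusted p = 2.2e-05 and 1.2e-05), with no overlap and with each siSF3B1 siRNA alone. The other P-stalk genes, RPLP1 and RPLP2, had log2 differences of 0.10 and 0.22 in DMSO and 0.33 and 0.26 in 4OHT, none of which passed the test. RPS3, at the mRNA entry of the small subunit, lay at 292 to 358 CPM in 4OHT siNT and 240 to 267 in 4OHT siSF3B1, a difference of -0.32 ± 0.15 (adjusted p = 0.045). RPL12, at the base of the P-stalk, lay at 336 to 384 CPM in DMSO siNT and 302 to 341 in DMSO siSF3B1, a difference of -0.17 (adjusted p = 0.039).

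The siRNAs against SF3B1 differed for some members. In DMSO, siSF3B1-13 alone called 22.7% of the 75 higher, beside 35.8% of all genes tested, and siSF3B1-16 28%, beside 33.3%. In 4OHT the shares were 52% beside 38.8% with siSF3B1-13 and 32% beside 35.7% with siSF3B1-16. The share called above that of other genes in 4OHT was thus not seen with siSF3B1-16 alone. The median log2 difference of the 75 in 4OHT was 0.25 with siSF3B1-13 and 0.17 with siSF3B1-16. Over all genes tested it was 0.03 and 0.02. The median was thus above that of all genes with each siRNA, and the lower share called does not show that the rise was absent with siSF3B1-16. Called with each siRNA alone in the same direction were 15 higher and 1 lower gene in DMSO and 22 and 2 in 4OHT, while 11 and 2 genes had opposite signs. For these counts the shares of all genes are not given. RPS6 was the clearest, called lower with siSF3B1-13 and higher with siSF3B1-16 in each treatment. Its median in DMSO was 600 CPM with siSF3B1-13 and 775 with siSF3B1-16, and in 4OHT 492 and 609. Pooled over both siRNAs the log2 difference of RPS6 was -0.05 in DMSO and 0.04 in 4OHT (adjusted p = 0.52 and 0.63), between the values of the siRNAs.

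Knockdown of RBM39 gave 16 higher and 3 lower genes in DMSO (21.3% and 4.00%), against 23.9% and 22.3% of the other genes tested. In 4OHT, 48 were higher and 3 lower (64.0% and 4.00%), against 31.9% and 24.4%. Median log2 differences were 0.12 and 0.23, against 0.02 and 0.05 over all genes. Groups did not overlap for only 3 genes in DMSO and 11 in 4OHT (4.00% and 14.7%), against 20.4% and 25.1% of the other genes. These counts rested on few libraries. Without replicate 4 of siRBM39-08 in 4OHT, 27 genes were higher in 4OHT, all of them among the 48, and the median fell to 0.09. That is 36%, beside 33.1% of all genes. In DMSO, leaving out the 3 libraries of high share gave 12 higher and 11 lower genes, 16% and 14.7% against 29.3% and 25.9% of all genes, with a median of 0.01. Other exclusions went the other way. Without replicate 4 of siRBM39-08, DMSO gave 31 higher and 7 lower genes, 41.3% higher beside 29.8% of all genes, and without the 3 libraries 4OHT gave 34 higher and 6 lower, 45.3% higher beside 35.7%.

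The siRNAs against RBM39 also gave different counts when each was taken alone. In DMSO, siRBM39-06 called 34 genes higher and 2 lower and siRBM39-08 called 4 and 6, with 4 higher and 1 lower in common. In 4OHT, siRBM39-06 called 22 higher and 3 lower and siRBM39-08 called 61 and 2, with 20 and 1 in common. The shares of all genes in common are not given. In DMSO the higher genes were 45.3% with siRBM39-06, beside 27.5% of all genes tested, and 5.33% with siRBM39-08, beside 21.7%. In 4OHT they were 29.3% with siRBM39-06, near the 28.1% of all genes, and 81.3% with siRBM39-08, beside 33.1%. The shares called lower were under those of all genes in each case. The libraries of high share lay in siRBM39-06 in DMSO and in siRBM39-08 in 4OHT, the siRNA with more genes called in each treatment. The marker sum of other cell types reached 3.00 CPM in DMSO siRBM39 and 4.28 in 4OHT siRBM39, against 1.51 and 1.37 at most in siNT, and its part in these results was not tested.

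Some genes rose with siRBM39 in groups that did not overlap. RPS23 lay at 376, 413 and 453 CPM in DMSO siRBM39 and 273, 293 and 361 in 4OHT siRBM39, and rose by 0.33 and 0.36 (adjusted p = 5.5e-08 and 5.3e-09) over the siNT levels given above. RPL37, a large subunit protein, rose in DMSO from 194, 218 and 227 CPM to 234, 258 and 290, a log2 difference of 0.26 ± 0.07 (adjusted p = 0.0022). RPL27A rose in 4OHT from 276, 292 and 316 CPM to 337, 370 and 752, a difference of 0.50 (adjusted p = 3.8e-05), which was 0.33 without replicate 4 of siRBM39-08. RPS28, of the small subunit, rose in 4OHT from 152, 158 and 167 CPM to 172, 181 and 525, a difference of 0.52 ± 0.14 (adjusted p = 0.0017), and by 0.22 without that replicate (adjusted p = 0.014). RPL13A, whose protein also silences inflammatory transcripts once released from the ribosome, rose in 4OHT from 878, 913 and 967 CPM to 1025, 1077 and 2044, a difference of 0.39 (adjusted p = 0.00023) and of 0.23 without that replicate.

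Several calls were lost without that single library. RPS3 had a log2 difference of 0.37 in 4OHT (adjusted p = 0.027) and of 0.06 without replicate 4 of siRBM39-08 (adjusted p = 0.55). For RPLP1 the values were 0.50 (adjusted p = 0.023) and 0.08 (adjusted p = 0.57), for RPL11 0.44 (adjusted p = 0.0092) and 0.12 (adjusted p = 0.18), and for RPS9 0.54 (adjusted p = 0.0048) and 0.17 (adjusted p = 0.10). RPL5 held at 0.20 (adjusted p = 1.3e-05) and 0.17 without it.

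The genes that fell with siRBM39 were RPL7L1, RPL22L1 and RPLP0 in both treatments. RPLP0 lay at 910, 1012 and 1212 CPM in DMSO and 618, 735 and 1088 in 4OHT, which overlapped siNT, and fell by 0.24 and 0.20 (adjusted p = 0.0019 and 0.0069). Without the 3 libraries of high share the log2 differences of RPLP0 were -0.31 and -0.30. RPLP0 was not called with siRBM39-06 alone in DMSO (-0.15, adjusted p = 0.076) or with siRBM39-08 alone in 4OHT (-0.13, adjusted p = 0.12). RPL22L1 was called with each siRNA alone in DMSO and missed the threshold with siRBM39-08 alone in 4OHT, at -0.34 (adjusted p = 0.054).

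Over the 4 knockdown comparisons, RPL5, RPL22, RPL27A, RPL35A and RPS23 were called higher in each, RPL22L1 and RPLP0 lower in each, and RPL7A, RPL9, RPL13, RPS3A, RPS6 and RPS15 in none. RPS3 was called in both directions, lower with siSF3B1 and higher in 4OHT with siRBM39. These comparisons share their siNT libraries within a treatment. The share of other genes called in all 4 comparisons or in none is not given, so the lists of members are not set against a background. With each siRBM39 siRNA alone in DMSO, 4 members were called higher in both, so the pooled calls do not all hold with each siRNA.

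Whether a knockdown acted differently in 4OHT than in DMSO was tested as an interaction. For siSF3B1, 2 of 75 genes had a larger log2 difference in 4OHT and none a smaller one, against 38.1% of the other genes tested with a difference in either direction. At an unadjusted p under 0.05 edgeR gave 6 and 1. The share of all genes at that unadjusted p is not given here or for siRBM39 below, so these counts have no background. DESeq2 called 2 and 0 at its adjusted p, against 1862 and 2041 of the 9991 genes tested. RPL3 differed by -0.01 in DMSO and 0.30 in 4OHT, an interaction of 0.32 ± 0.12 (adjusted p = 0.04). It lay at 1183, 1358 and 1441 CPM in DMSO siSF3B1 and 1041, 1058 and 1076 in 4OHT siSF3B1. RPL10A, of the large subunit, differed by 0.00 and 0.24, an interaction of 0.24 ± 0.07 (adjusted p = 0.005), and lay at 308 to 339 CPM in 4OHT siNT and 363 to 403 in 4OHT siSF3B1, without overlap. With siSF3B1-16 alone neither was called. The counts for siSF3B1 moved to 7 larger and 1 smaller without replicate 4 of siRBM39-08 in 4OHT, which is outside this contrast but enters the shared spread, and to 16 and 2 without the 3 libraries of high share. These 16 are 21.3%, beside 25.3% of all genes tested. For siRBM39, none had a larger difference in 4OHT and 1 a smaller one, against 14.2% of the other genes in either direction. At an unadjusted p under 0.05 the counts were 4 and 1. DESeq2 called 0 and 1, against 854 and 788 of the 9991 genes tested. The gene with the smaller difference was RPL26L1, at 18.5, 19.6 and 25.5 CPM in DMSO siRBM39 and 13.4, 15.4 and 16.5 in 4OHT siRBM39, with an interaction of -0.24 ± 0.08 (adjusted p = 0.025). Without the 3 libraries of high share it missed the threshold, at -0.18 (adjusted p = 0.053). The counts for siRBM39 then were 9 larger and 0 smaller, or 12% larger beside 13.1% of all genes tested. With siRBM39-08 alone they were 28 and 2, or 37.3% larger beside 13.4% of all genes tested. The 4OHT libraries of siRBM39-08 include replicate 4, which stood apart in its share. Without that library, both siRNAs pooled gave 0 larger and 1 smaller.

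The paralogue pairs were followed through all groups. RPL22 and RPL22L1 encode alternative forms of the same large subunit protein, and moved in opposite directions in all 5 comparisons. RPL22 was at 237, 251 and 269 CPM in DMSO siNT and 171, 184 and 192 in 4OHT siNT, and fell by 0.45 on the log2 scale (adjusted p = 6.5e-08). RPL22L1 was at 24.6, 28.1 and 29.6 CPM in DMSO siNT and 33.4, 36.4 and 37.5 in 4OHT siNT, a rise of 0.40 ± 0.12 (adjusted p = 0.0027). Neither pair of groups overlapped.

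After siSF3B1, RPL22 rose by 0.29 in DMSO and 0.34 in 4OHT (adjusted p = 0.00022 and 1.9e-05), to 270 to 337 and 209 to 253 CPM. RPL22L1 fell by 0.52 in DMSO and by 0.71 in 4OHT (adjusted p = 0.00024 and 1.3e-06), to 12.9 to 25.6 and 16.7 to 28.8 CPM. The siRNAs differed in size, with RPL22L1 medians of 24.5 CPM for siSF3B1-13 and 13.7 for siSF3B1-16 in DMSO and of 25.9 and 17.9 in 4OHT. With siSF3B1-13 alone the log2 difference of RPL22L1 in DMSO was -0.15 (adjusted p = 0.081). After siRBM39, RPL22 rose by 0.22 and 0.28 and RPL22L1 fell by 0.47 and by 0.42 (adjusted p = 0.0017 and 0.0031).

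RPL7L1, which acts in ribosome assembly and is related to RPL7, fell after siRBM39 by 0.54 in DMSO and by 0.70 in 4OHT (adjusted p = 0.018 and 0.0016). Its level split by siRNA. With siRBM39-06 the median was 57.1 CPM in DMSO and 71.9 in 4OHT, and with siRBM39-08 it was 152 and 164, against siNT medians of 150 and 192. With siRBM39-06 alone the log2 difference of RPL7L1 was -1.40 ± 0.04 in both treatments, and with siRBM39-08 alone a difference of -0.23 was called in 4OHT (adjusted p = 2.2e-07) and -0.00 in DMSO was not. Both siRNAs thus lowered RPL7L1 in 4OHT. RPL7 itself had differences of 0.04 and 0.11, neither past the threshold, and fell after 4OHT by 0.45 (adjusted p = 3.2e-08), while RPL7L1 had 0.34 (adjusted p = 0.095).

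RPL26 and RPL26L1 moved alike after 4OHT, with falls of 0.20 and 0.21, and after siSF3B1, with rises of 0.20 and 0.42 in DMSO and 0.26 and 0.36 in 4OHT. RPS27 and RPS27L fell by 0.35 and 0.30 after 4OHT. After siSF3B1 in DMSO, RPS27L rose by 0.19 (adjusted p = 0.00059) and RPS27 had 0.10 (adjusted p = 0.12), and in 4OHT RPS27 rose by 0.28 (adjusted p = 2.8e-05) and RPS27L had 0.04 (adjusted p = 0.40). RPS27A, which is made as a fusion with ubiquitin, was called only after siSF3B1 in 4OHT, where it rose by 0.28 (adjusted p = 0.045) from a median of 183 CPM to 222. RPL39, which lines the exit tunnel, fell by 0.29 after 4OHT (adjusted p = 0.0048).

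Splicing of the same genes was read from the event table as percent spliced in (PSI), the share of junction reads that include an exon or retain an intron. The table listed 61 exons in 33 of the genes and 100 introns in 54. With coverage in every library there were 25 exons and 68 introns, and 3 exons and 4 introns could be tested after the filters on range and read balance. An event counted as called where limma's adjusted p was below 0.05 and PSI differed by 5 points or more. The 3 exons lie in RPS24 and RPS9. Of 3316 other genes with a tested exon, those with an exon called made up 43.2% with siSF3B1 in DMSO, 47.2% with siSF3B1 in 4OHT, 15.9% with siRBM39 in DMSO, 17.3% with siRBM39 in 4OHT and 3.20% after 4OHT. Of 5244 introns of other genes, the share called was 11.1%, 14.9%, 2.06%, 2.08% and 0.0953% in the same order.

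The 22-base exon of RPS24 was called in all 4 knockdown comparisons. It lies at chr10:78040204-78040225 on the plus strand of GRCh38, the build of the event coordinates, and at chr10:79799962-79799983 in GRCh37, from which its sequence was read. The exon is shown in capitals within 50 bases of intron on either side, because its own letters hold the end of the reading frame.
RPS24 exon, chr10:79799912-79800033, plus strand: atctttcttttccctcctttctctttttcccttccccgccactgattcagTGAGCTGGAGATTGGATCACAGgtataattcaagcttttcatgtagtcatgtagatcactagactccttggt
In the 5 annotated transcripts that contain it, none codes within it before the stop, and in 3 of them its bases 1 to 3 are the stop codon.

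Inclusion of the RPS24 exon went down with siSF3B1 and up with siRBM39. The lowest, median and highest PSI were 60.2, 71.9 and 89.5 in DMSO siNT, 35.8, 46.9 and 74.2 in DMSO siSF3B1 and 80.9, 86.4 and 96.5 in DMSO siRBM39. In 4OHT they were 47, 63.1 and 81.4 with siNT, 20.2, 25 and 44.4 with siSF3B1 and 74.7, 87.3 and 92.3 with siRBM39. Only siSF3B1 and siNT in 4OHT did not overlap. The differences were -24.7 points (adjusted p = 0.00040) and -35.8 points (adjusted p = 1.7e-06) for siSF3B1, and 14.5 points (adjusted p = 0.0033) and 23.5 points (adjusted p = 0.00014) for siRBM39. Among all exons called with siRBM39, those with higher inclusion were 80 of 634 in DMSO and 87 of 717 in 4OHT. Between 201 and 1808 reads supported each value. Each siRNA alone was called except siRBM39-06 in DMSO, at 10.3 points (adjusted p = 0.32). After 4OHT in siNT the difference was -10.5 points (adjusted p = 0.59).

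RPS9, a small subunit protein near the mRNA entry, had 2 exons tested. The 172-base exon had a PSI of 19.1, 27.2 and 41 in DMSO siNT and 1.59, 14.7 and 21.9 in 4OHT siNT, a difference of -14.6 points (adjusted p = 0.0027) in groups that overlapped. With siSF3B1 in 4OHT it was 20.4, 22.5 and 29.3, a difference of 10.4 points (adjusted p = 0.0013). Its coverage was 26 to 150 reads, and with siNT2 alone the 4OHT difference was -14.0 points (adjusted p = 0.38). The 187-base exon of RPS9 was not called.

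Of the 4 introns tested, 3 are in RPS21 and 1 is in RPS6. The 92-base intron of RPS21, a small subunit protein, was the intron called, with siSF3B1 in each treatment. It lies at chr20:60963421-60963512 on the plus strand of GRCh37, and capitals mark the dinucleotides at its splice sites.
RPS21 intron, plus strand: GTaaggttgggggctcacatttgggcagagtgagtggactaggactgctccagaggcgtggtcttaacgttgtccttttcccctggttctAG
Its lowest, median and highest PSI were 2.42, 2.90 and 4.64 in DMSO siNT and 7.84, 8.46 and 9.66 in DMSO siSF3B1, and 2.05, 3.15 and 3.78 against 8.91, 10.8 and 11.3 in 4OHT. The differences were 5.60 points (adjusted p = 9.7e-08) and 7.41 points (adjusted p = 5.0e-10), with no overlap. With siRBM39 it was 3.35 to 5.66 in DMSO and 3.31 to 6.13 in 4OHT, differences of 1.61 and 1.84 points (adjusted p = 0.10 and 0.060). The RPS21 gene as a whole had medians of 53.9 CPM in DMSO siNT and 57.3 in DMSO siSF3B1, in groups that overlapped.

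Without the filter on the balance of reads at both intron ends, 24.4%, 29.7%, 6.83%, 7.28% and 0.738% of 8541 introns of other genes were called in the same order of comparisons, and of 16 introns of the ribosomal protein genes 3, 6, 1, 1 and 1 were. The 258-base intron of RPL30, whose protein in yeast binds its own transcript and blocks its splicing, was at 0.82, 1.62 and 4.35 in DMSO siNT and 12.2, 18.2 and 19.8 in DMSO siSF3B1. In 4OHT it was at 0.41, 2.57 and 3.90 against 12.4, 16.4 and 21.4. These are differences of 14.8 and 14.5 points (adjusted p = 3.1e-13 and 9.9e-13) with no overlap, and 5 libraries were under the balance minimum. The 354-base intron of RPL35, a protein at the exit of the tunnel, differed by 8.86 and 17.3 points with siSF3B1 and by 9.07 points after 4OHT (adjusted p = 0.00085), on 20 to 88 reads and with 19 libraries under the balance minimum. The 3310-base intron of RPS24 that spans the 22-base exon differed by 10.3 and 11.3 points with siRBM39 and by -4.03 and -5.93 points with siSF3B1. Reads that join the ends of this intron skip the exon, so its PSI is not independent of exon inclusion. It moved in the same directions as the exon and cannot be read as intron retention alone. For this intron, 14 libraries were under the balance minimum.

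Over the 68 covered introns of 36 genes, the mean PSI was 0.607, 0.765 and 0.906 at the lowest, median and highest DMSO siNT library and 1.03, 1.15 and 1.37 in 4OHT siNT. With siSF3B1 it was 1.28, 1.57 and 2.07 in DMSO and 2.18, 2.39 and 2.78 in 4OHT. With siRBM39 it was 1.00, 1.11 and 1.40 and 0.969, 1.49 and 1.94. The siSF3B1 libraries did not overlap siNT in either treatment. The siRBM39 libraries did not overlap siNT in DMSO but did in 4OHT, and the 4OHT siNT libraries lay above those of DMSO siNT. The differences of the means were 0.848 and 1.27 points with siSF3B1, against 1.34 and 1.73 over all introns. They were 0.357 and 0.328 with siRBM39, against 0.441 and 0.476, and 0.410 after 4OHT against -0.0700. With siSF3B1, 50 of the 68 introns were higher and 18 lower in DMSO, and 49 and 19 in 4OHT. Of the introns that differed at all these are 73.5% and 72.1% higher, against 75.2% and 80.2% over all 26089 introns, where 4585 and 4492 were equal in both groups. With siRBM39, 64.6% in DMSO and 50.7% in 4OHT of those that differed were higher, against 64.0% and 66.3% of all introns that differed. After 4OHT, 51 were higher and 16 lower, or 76.1% higher, against 45.5% of all introns that differed. The introns of RPL30, RPL35 and RPL22L1 weighed on the means. Without them, 63 introns gave 0.430 and 0.627 points with siSF3B1 and 0.297 after 4OHT. As the introns of a gene share its transcripts, these values are given with no test.

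**Figure D3:**
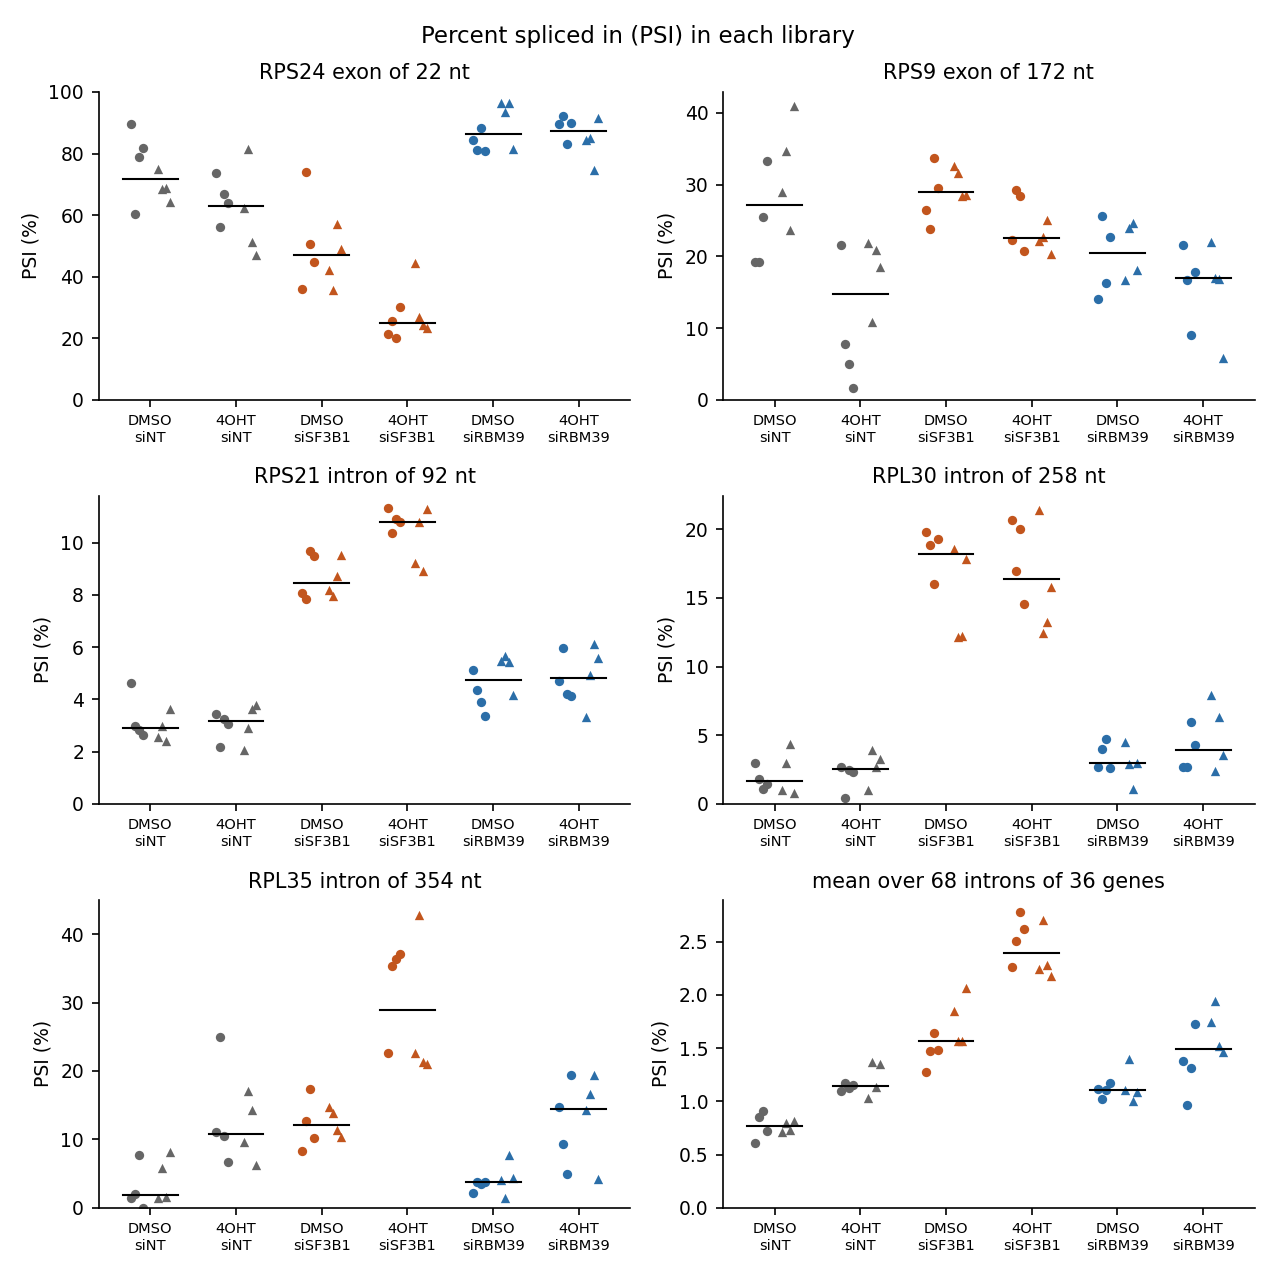
PSI in each library of the RPS24 22-base exon, the RPS9 172-base exon and the RPS21, RPL30 and RPL35 introns, and the mean PSI over 68 introns of 36 ribosomal protein genes, by group. Circles are the first and triangles the second siRNA of a target, and black bars are medians of 8. The siSF3B1 libraries are low for the RPS24 exon (medians 46.9 and 25) and high for the RPS21 intron (medians 8.46 and 10.8).

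Other genes of the pathway were followed from a list of translation genes with TOP mRNAs and a list of TOP regulators. Of 21 translation genes tested, 12 fell and 1 rose after 4OHT, with a median log2 difference of -0.25, where 38.9% of genes outside the 75 fell and 39.2% rose. EEF1A1, the factor that delivers aminoacyl-tRNA, fell by 0.78 (adjusted p = 1.8e-25), EIF3F by 0.93 and EIF4B by 0.65, and the riser was EIF3D at 0.19. With siSF3B1, 7 rose and 7 fell in DMSO and 10 and 7 in 4OHT, and with siRBM39 4 and 1 and 10 and 2. The median log2 difference of these 21 genes was 0.04 and 0.12 with siSF3B1 and 0.05 and 0.15 with siRBM39. The shares of the other genes called, given above for each comparison, apply to both lists, and with so few genes several of these counts lie near them.

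Of 12 regulators tested, 7 rose and 2 fell after 4OHT. MYC, which drives ribosome production, rose by 1.51 (adjusted p = 2.1e-18) and EIF4EBP1, a repressor of cap-dependent translation under mTOR, fell by 0.72 (adjusted p = 2.5e-06). MTOR rose by 0.37 after 4OHT (adjusted p = 5.1e-05). It fell by 1.49 in DMSO and by 1.70 in 4OHT with siSF3B1 (adjusted p = 3.3e-21 and 2.0e-23), and by 0.79 and by 0.83 with siRBM39. LARP1, which binds the TOP motif, rose by 0.14 after 4OHT (adjusted p = 0.0026). In the knockdowns, 4 regulators rose and 4 fell with siSF3B1 in DMSO, 2 and 4 in 4OHT, 4 and 2 with siRBM39 in DMSO and 4 and 4 in 4OHT. Among senescence genes, 5 of 7 rose and 2 fell after 4OHT, with IL6 at 6.48 and MKI67 at -3.58, and 9 of the 10 fibroblast markers fell. The fibroblast marker sum went from 70435 to 81215 CPM in DMSO siNT to 21227 to 22113 in 4OHT siNT, and its part in the fall of the ribosomal protein genes was not tested.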

How the data were processed

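Poly-A RNA of 48 libraries (8 in each of 6 groups) was sequenced by the authors. They deposited read counts per gene, cRPKM (RPKM corrected for uniquely mappable positions) and percent spliced in (PSI) from vast-tools. The submitters' processing notes name hg19, edgeR and limma. The event coordinates match GRCh38 exon edges for 100 of 100 member introns. The libraries titled 4OHT-siNT2 carry siNT1 in another label, and the title was used.

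Counts were tested with edgeR 4.0.16 (quasi-likelihood, TMM, 1 model of 6 group means, R 4.3.3) over 9991 genes with at least 10000 counts. PSI, squeezed as 0.01 + 0.98 × PSI/100, was tested on the logit scale with limma 3.58.1 where every library had coverage, PSI spanned at least 5 points and, for introns, the balance p was at least 0.05 in every library. Shares called are given over the features tested outside the 75 genes. P-values were Benjamini-Hochberg adjusted, with 0.05 as threshold. DESeq2 1.42.0 was an alternative. Scripts were tested on simulated data. Replicates are independent experiments per the methods. No pair of libraries among the 72 that share siRNA and treatment differed by less than sampling noise (lowest chi-square per degree of freedom 2.00).

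A name under the count minimum is not reported here. The members and lists were chosen with earlier results of these data known. Genes named were, per comparison, the 3 largest rises and falls among called members whose groups did not overlap, the members called in an interaction, and a set list (paralogue pairs, P-stalk, RPL5, RPL11, RPS6, RPSA, RPS27A, RPS24, RPL3, RPL10A, RPL12, RPS3, RPL30, RPS9 and RPS13). EIF3F, EIF4B, EIF3D, EEF1A1, MYC, EIF4EBP1, IL6 and MKI67 were named after their values were seen.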

Additional observations from a re-analysis of the deposited data

Results flagged for a closer look

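Of 228 groups of 8 libraries checked, 38 had a lowest or highest library that lay far from the others by Dixon's criterion. For a single group, chance gives this in about 1 of 20. The groups read the same 48 libraries for many genes and are not independent, so the 38 cannot be set against that rate. Most of the 38 lay in 4OHT siRBM39. In 4OHT siRBM39 the library was replicate 4 of siRBM39-08, with a ribosomal protein share of 3.92%. Its values in CPM for the large subunit were RPL3 1547, RPL7 658, RPL10 559, RPL10A 392, RPL11 894, RPL12 420, RPL13A 2044, RPL22 317, RPL22L1 36.5, RPL26 319, RPL27A 752, RPL36A 123 and RPL39 169. For the P-stalk they were RPLP0 1088, RPLP1 1211 and RPLP2 425. For the small subunit they were RPS3 971, RPS6 668, RPS9 795, RPS13 216, RPS16 463, RPS23 361, RPS27A 447 and RPS28 525.

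In DMSO siSF3B1 the libraries that stood apart held RPS27L at 108 CPM, RPL39 at 119, RPLP1 at 504, RPS3 at 394, RPS16 at 360, RPL27A at 495 and RPS28 at 213. Others were RPL26 at 331 CPM in DMSO siNT, RPL11 at 326 in 4OHT siSF3B1, and RPS27L at 115 and RPS13 at 204 in DMSO siRBM39. The RPS24 exon had 1 library at a PSI of 44.4 in 4OHT siSF3B1, and the mean over the introns 1 library at 1.40 in DMSO siRBM39.

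The knockdown effect differed between treatments by an interaction test for RPL10A at 0.24 and RPL3 at 0.32 with siSF3B1 and for RPL26L1 at -0.24 with siRBM39, each as the log2 difference in 4OHT minus that in DMSO.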

How the results depend on the processing

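Counts of members called are given here as the value with every library and, after it, those that moved. Counts over all genes moved as well, so a member count alone does not show its standing. With the groups of the comparison alone, 4007 of all 9991 genes were higher with siSF3B1 in DMSO and 4329 in 4OHT. The same setting gave 2355 higher with siRBM39 in 4OHT and 2671 in the siSF3B1 interaction. Most counts over all genes in the remaining settings are not given. For siSF3B1 in DMSO, the 22 higher became 35 with a minimum of 1 count, 0 with a 1.5-fold minimum, 41 with the groups of the comparison alone, 37 without replicate 4 of siRBM39-08 and 40 without the 3 libraries of high share (the last setting was chosen after seeing the data). The 4 lower became 2 with a minimum of 1 count, with 5 counts in each library, and with either siRNA alone, and 0 at 1.5-fold, with 2 to 5 over leaving out single replicates. For siSF3B1 in 4OHT, the 40 higher became 1 at 1.5-fold, 26 with library size scaling, 62 with the groups alone and 24 with siSF3B1-16 alone, with 25 to 53 over single replicates. The 3 lower became 1, 5 and 7 under the first 3 of these, with 2 to 3 over single replicates. For siRBM39 in DMSO, the 16 higher became 0 at 1.5-fold, 34 with siRBM39-06 alone, 4 with siRBM39-08 alone and 31 without replicate 4 of siRBM39-08, with 6 to 35 over single replicates. The 3 lower became 0 at 1.5-fold, 6 with siRBM39-08 alone, and 7 and 11 without the 1 and the 3 libraries. For siRBM39 in 4OHT, the 48 higher became 0 at 1.5-fold, 18 with the groups alone, 22 with siRBM39-06 alone and 27 without replicate 4 of siRBM39-08, with 23 to 46 over single replicates, and the 3 lower became 1 at 1.5-fold and 6 without the 3 libraries. After 4OHT, the 4 higher became 0 at 1.5-fold and with siNT1 alone and 2 with siNT2 alone, with 2 to 3 over single replicates, and the 47 lower became 5 at 1.5-fold, with 39 to 54. For the siSF3B1 interaction, the 2 higher became 1 with a minimum of 1 count, with 5 in each library and with library size scaling, 0 at 1.5-fold and with siSF3B1-16 alone, 21 with the groups alone, and 7 and 16 without the 1 and the 3 libraries, with 0 to 5 over single replicates. The 0 lower became 2, 1 and 2 under the first 3 of these settings, 3 with the groups alone, 2 and 1 with siSF3B1-13 and siSF3B1-16 alone, and 1 and 2 without the 1 and the 3 libraries. For the siRBM39 interaction, the 0 higher became 28 with siRBM39-08 alone and 9 without the 3 libraries, and the 1 lower became 0 at 1.5-fold, 2 with siRBM39-08 alone and 0 without the 3 libraries, with 0 to 1 over single replicates. For introns with siSF3B1, the 1 called in each treatment became 0 at 10 points, 3 and 6 without the balance filter and 2 without a minimum difference. The 0 called became 1 without the balance filter in both siRBM39 comparisons and after 4OHT, and 1 without a minimum difference for siRBM39 in DMSO. For exons, the 1 called became 0 with siRBM39-06 alone in DMSO and with siNT2 alone after 4OHT, with 0 to 1 over single replicates for both. The mean difference over introns moved with the summary. For siSF3B1 in DMSO, 0.848 became 0.213 as a median, 0.284 over balanced introns and 0.428 on summed reads. For siSF3B1 in 4OHT, 1.27 became 0.247, 0.332 and 0.557, and 1.04 with higher coverage. For siRBM39, 0.357 in DMSO became 0.011, 0.057 and 0.086, and 0.328 in 4OHT became -0.0031, 0.044 and 0.059, so that the median reversed. After 4OHT, 0.410 became 0.092, 0.090 and 0.146, and 0.135 with higher coverage. RPS6 with siSF3B1 reversed to 0.13 in DMSO with siSF3B1-16 alone (adjusted p = 0.016) and to -0.13 in 4OHT with siSF3B1-13 alone (adjusted p = 0.017), and RPL3 with siRBM39 in 4OHT to -0.086 without the 3 libraries (adjusted p = 0.044). The cause was not tested. Replicate numbers did not pair the samples, with correlations of same-numbered libraries from -0.91 to 0.81 (median 0.01) and a best partner of the same number for 12 of 48, and the replicate block gave 45 higher for siRBM39 in 4OHT and moved no count by over 1.5 times. For single genes and events, 3329 values kept direction and side of the threshold, 140 gained and 256 lost the call, 143 moved and 3 reversed. Low read numbers limit the introns, and 7 events passed all filters.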
